A study of Mus musculus with 6 samples.

Results

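TRAMP-C2 cells left without drug and TRAMP-C2 cells kept in 2 µM cisplatin for 24 h were compared across their transcriptomes. TRAMP-C2 is a mouse prostate cancer cell line that came from a tumour of the C57BL/6 TRAMP strain, in which a viral oncogene is driven by a prostate promoter. Members of the comparison were the 2 libraries labelled as untreated and the 2 libraries labelled with cisplatin, 4 of the 6 libraries in the series, and the other 2 came from cells given 2 µM oxaliplatin for 24 h. Of 54446 genes in the table, 14956 had at least 10 counts in at least 2 of the 6 libraries and were tested. All cells were male, of C57BL/6 background, and grown with bovine serum, insulin and dehydroisoantrosterone, an androgen precursor. No vehicle was named for the untreated cells, and 1 cell line is a single model. Each group had replicates 1 and 2, and the labels did not say whether these came from separate cultures, so every p value measures the spread between these libraries, which may be technical.

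Cisplatin is a platinum compound that binds purine bases of DNA and joins neighbouring or opposite bases to each other. Such adducts stop DNA and RNA polymerases, are removed by nucleotide excision and crosslink repair, and activate the p53 pathway, inflammatory signalling through NF-κB and stress kinases that act on AP-1 transcription factors. Cells can respond by halting the cell cycle, by repair or by apoptosis.

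The libraries held 21345312 to 24041767 counts, and 3 counts, the most that a count of 0 allows, correspond to 0.125 to 0.141 CPM (a gene's counts scaled to a common total), from counting error alone. Replicates differed by more than sampling noise (mean chi-square per gene 2.83 to 4.73, where 1 is noise alone), and mitochondrial genes took 1.87% to 2.11% of counts. Of 10 prostate luminal markers 5 passed the filter, Krt8, Krt18, Krt19 and Cdh1 among them, whereas Epcam, Pbsn, Hoxb13 and Tmprss2 had 0 to 3 counts in every library. The basal marker Krt5 was at 0. All 10 mesenchymal markers passed, and their summed level was 18549 to 19094 CPM in control and 15040.3 to 15477 CPM in cisplatin cells, with Vim and Thy1 higher and 5 markers lower. The prostate label is kept as given, although these defining luminal markers were near or at 0. Summed immune cell markers stayed at 1.47 to 2.49 CPM and summed erythroid markers at or under 0.134 CPM, and 7 of 8 immune markers, Ptprc among them, were too low to test. In such bulk samples fewer cells of a kind and less RNA per cell cannot be told apart.

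Cisplatin raised inflammatory, interferon-stimulated and immediate-early genes most strongly, raised many genes of DNA replication, ribosome assembly and protein homeostasis by small amounts, and lowered more genes than it raised among those with long bodies and in the lists of matrix and endoplasmic reticulum (ER) folding genes. DESeq2 called 28.1% of the genes tested at an adjusted p under 0.05, with 15.7% higher and 12.4% lower in cisplatin cells. Called genes numbered 2696 and 2269 without control replicates 1 and 2, and 2088 and 2046 without cisplatin replicates 1 and 2, from 4203. Most calls were small (median size of the log2 fold change 0.36), and 122 genes rose and 120 fell by at least 1 on the log2 scale. The groups' libraries did not overlap for 69.4% of all genes tested, so a lack of overlap is common here. Many list members below were named for a small adjusted p or after their values were seen. Separation of their libraries follows largely from that choice and is no added evidence. Among called genes 56.0% were higher, but 43.4% when libraries were scaled by total counts, which shifted the median of all genes by -0.05 on the log2 scale. The genes are described below by 33 lists of textbook pathways and gene classes, each count to be read against these shares. Values after ± are standard errors (SE) of log2 fold changes from 2 libraries per group.

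The 10 largest rises included 4 genes of secreted signals, Cxcl10, Ccl7, Ccl5 and Ereg. Cxcl10 (ENSMUSG00000034855, chromosome 5, 92346638 to 92348889, GRCm38), a chemokine that draws T cells, had 101 and 79.8 normalised counts in control and 958 and 908 in cisplatin cells. This rise of 3.37 ± 0.17 on the log2 scale was the largest by the rule used for naming (DESeq2 adjusted p = 1.94e-84). The naming rule took only genes whose groups did not overlap, so this separation of the largest rises and falls was fixed in advance. Rsad2 (ENSMUSG00000020641, chromosome 12, 26442746 to 26456452), an interferon-induced antiviral enzyme, had 49.8 and 64.04 normalised counts in control and 298 and 236 in cisplatin cells (log2 fold change 2.23 ± 0.27, DESeq2 adjusted p = 7.24e-15). Ptgs2 (ENSMUSG00000032487, chromosome 1, 150100031 to 150108227), the inducible cyclooxygenase of prostaglandin synthesis, had 1100.0 and 1250.3 normalised counts in control and 3788 and 4432 in cisplatin cells (log2 fold change 1.81 ± 0.09, DESeq2 adjusted p = 4.96e-84). In both genes the 2 cisplatin libraries were above the 2 control libraries with a wide gap. The chemokine genes Ccl7 (534 and 522 normalised counts in control and 1825 and 1789 in cisplatin cells, log2 fold change 1.77 ± 0.08) and Ccl5 (115 and 119 normalised counts in control and 394 and 381 in cisplatin cells, log2 fold change 1.72 ± 0.18) rose as well. Ccl7 and Ccl5 encode attractants of monocytes and of T cells. Rassf1, a tumour suppressor with a Ras association domain, had 1287 and 1169 normalised counts in control and 3916 and 3963 in cisplatin cells (log2 fold change 1.68 ± 0.07, DESeq2 adjusted p = 1.97e-130), and exons of this gene overlap Gm9917 on the opposite strand. Ier3, an early response gene of stressed cells, rose by 1.62 ± 0.09, and Ereg, a ligand of the EGF receptor, by 1.56 ± 0.22 on the log2 scale. Slc16a6, of the monocarboxylate transporter family, rose by 1.79 ± 0.18 and shares exon positions with Amz2 and Arsg on the opposite strand. Gm14296 (107 and 102 normalised counts in control and 426 and 401 in cisplatin cells) is a predicted gene with close relatives, so that its counts are uncertain.

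Genes with the largest falls included several with very long bodies. H1f0 (ENSMUSG00000096210, chromosome 15, 79028450 to 79030504), a linker histone of slowly dividing cells, had 4195 and 3931 normalised counts in control and 1499 and 1366 in cisplatin cells (log2 fold change -1.50 ± 0.07, DESeq2 adjusted p = 5.7e-103). The glypican gene Gpc6 (ENSMUSG00000058571, chromosome 14, 116925315 to 117976544), of a cell surface proteoglycan, had 356 and 371 normalised counts in control and 129 and 100.3 in cisplatin cells (log2 fold change -1.66 ± 0.21, DESeq2 adjusted p = 1.27e-13). All cisplatin libraries of both genes lay well below the control libraries. Rspo2 (ENSMUSG00000051920, chromosome 15, 43020794 to 43170826), a secreted enhancer of Wnt signalling, had 224 and 219 normalised counts in control and 71.6 and 68.6 in cisplatin cells (log2 fold change -1.66 ± 0.25). The guidance receptor gene Plxna4 (1117 and 1221 normalised counts in control and 409.8 and 432 in cisplatin cells) and the guidance ligand gene Slit3 (1554 and 1566 normalised counts in control and 559.8 and 592 in cisplatin cells) had log2 fold changes of -1.47 ± 0.11 and -1.44 ± 0.09. Their groups did not overlap, as the naming rule required. Trappc9, a subunit of a vesicle tethering complex, fell from 924 and 868 to 350.0 and 360.2 normalised counts. Lrba, Msra, Kcnj2 and Zbtb8b, the other genes of this group, had log2 fold changes of -1.25 ± 0.17, -1.26 ± 0.23, -1.26 ± 0.25 and -1.29 ± 0.26. Of the 10 falls, 6 had spans over 300 kb, against 0 of the 10 rises, whose spans ran from 1.24 to 35.3 kb.

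**Figure D1:**
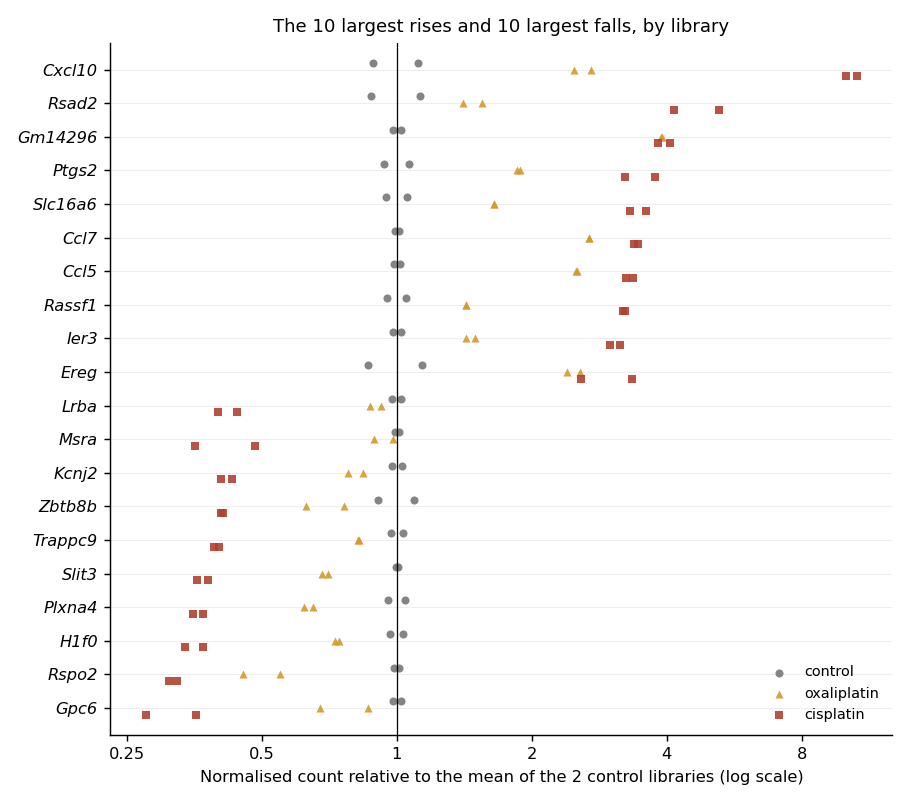
Normalised counts of the 10 largest rises and the 10 largest falls by the naming rule, each relative to the mean of the 2 control libraries, on a log axis. Each point is 1 library, with circles for control, triangles for oxaliplatin and squares for cisplatin. The naming rule required the 2 cisplatin libraries to lie outside the 2 control libraries, so this holds for all 20 genes by selection. Cxcl10 lies farthest.

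The promoter of Cxcl10 is shown because this gene had the largest rise by the naming rule. Ccl20, which that rule did not name, had a larger log2 fold change of 4.09. Another reason is that the Cxcl10 promoter carries motifs of the transcription factor families that the following lists stand for. The sequences come from RefSeq (GRCm38.p6), lie before the annotated start site and are written 5′ to 3′ along the gene, with motif matches in capitals. Motifs searched on both strands were the interferon-stimulated response element (ISRE, the letters GAAA, any 2 bases and GAAA again), the AP-1 site (TGANTCA) and the NF-κB consensus. No match of 1 motif overlapped a match of another in the sequences shown. For Cxcl10, 220 bases on the minus strand at chr5:92348890-92349109 held 1 ISRE, 2 NF-κB matches and 1 AP-1 match. For Rsad2, 220 bases on the minus strand at chr12:26456453-26456672 held 1 ISRE, which reads on the other strand, and 1 AP-1 match.
Cxcl10: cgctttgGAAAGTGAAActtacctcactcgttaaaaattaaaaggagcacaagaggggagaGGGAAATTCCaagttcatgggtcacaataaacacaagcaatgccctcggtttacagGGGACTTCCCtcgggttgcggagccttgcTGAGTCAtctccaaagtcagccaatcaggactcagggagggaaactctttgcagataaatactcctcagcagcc
Rsad2: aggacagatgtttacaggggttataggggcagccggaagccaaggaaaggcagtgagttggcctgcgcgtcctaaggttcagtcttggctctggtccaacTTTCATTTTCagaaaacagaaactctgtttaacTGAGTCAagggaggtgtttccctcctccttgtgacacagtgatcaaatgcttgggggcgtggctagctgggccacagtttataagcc

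Many interferon-stimulated genes rose after cisplatin. These genes encode antiviral effectors and sensors that are switched on through factors that bind ISRE sites. Of 48 members tested 25 were called higher and 0 lower (52.1% higher, beside 15.7% of all genes), and the median log2 fold change of the list was 0.57, against -0.000832 over all genes. Isg15, a ubiquitin-like modifier, had 155 and 177 normalised counts in control and 457 and 322 in cisplatin cells (log2 fold change 1.23 ± 0.22, DESeq2 adjusted p = 2.45e-07), and Ifit1, which binds foreign RNA, had 284 and 301 normalised counts in control and 713 and 655 in cisplatin cells (log2 fold change 1.22 ± 0.13, DESeq2 adjusted p = 4.47e-19). The cisplatin libraries of both genes lay well above the control libraries. Many members had low counts, and the number called higher was 38 with edgeR. It fell to 12 without control replicate 1, 11 without cisplatin replicate 1 and 14 without cisplatin replicate 2. Of 21 called-higher members with a RefSeq promoter entry 12 held the ISRE letters within 250 bases before the start site, and 978 of all 32851 promoters of the same length did (2.98%). Among all 36 tested members with an entry, called or not, 15 held them (41.7%). Fewer than 80% of the list had an entry, so nothing about the response to cisplatin is concluded from these shares. The matches nearest the start site are shown with 7 bases on each side where the window allows, 5′ to 3′ on the strand on which the motif reads (Cxcl10 and Rsad2 above hold the remaining 2). Beyond the letters searched, the stretches of the related genes Ifit3 and Ifit3b are identical, and those of the other genes differ.
Ifit3b (chr19:34607796-34607819, minus strand): gaaagtaGAAACTGAAAcagactt
Isg15 (chr4:156200868-156200891, minus strand): ggaaaccGAAACAGAAAatagctc
Ifit1 (chr19:34640797-34640820, minus strand): gcagtgaGAAACTGAAActgagac
Ifit3 (chr19:34583400-34583423, minus strand): gaaagtaGAAACTGAAAcagactt
Gbp3 (chr3:142559998-142560021, minus strand): gatctggGAAATAGAAActgaaac
Gbp7 (chr3:142530276-142530299, minus strand): gagaactGAAACTGAAActgcaca
Gbp2 (chr3:142620597-142620620, minus strand): agacagtGAAAGTGAAActaaaag
Oas1a (chr5:120907526-120907546, minus strand): ggaaatgGAAACTGAAAatct
Irgm1 (chr11:48871428-48871451, minus strand): agaaataGAAACCGAAActgattc
Bst2 (chr8:71537580-71537603, minus strand): ggaaaatGAAACTGAAAggctgca

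Many targets of NF-κB and inflammatory mediators also rose. NF-κB is held in the cytoplasm by inhibitor proteins and, once released, induces cytokines, adhesion molecules and its own inhibitors. Among 26 members tested 15 were called higher and 1 lower, with a median log2 fold change of 0.66, and 7 rose by at least 1. Tnfaip3, a deubiquitinating enzyme that restrains NF-κB, had 347 and 388 normalised counts in control and 1029 and 1106 in cisplatin cells (log2 fold change 1.54 ± 0.12, DESeq2 adjusted p = 5.9e-37). Nfkbia, the gene of the inhibitor IκBα, had 940.2 and 786 normalised counts in control and 1491 and 1497 in cisplatin cells (log2 fold change 0.79 ± 0.10, DESeq2 adjusted p = 8.58e-14). Icam1, a leukocyte adhesion molecule, had 277 and 304 normalised counts in control and 637 and 633 in cisplatin cells (log2 fold change 1.13 ± 0.13). For each of these inducible genes both cisplatin libraries exceeded both control libraries. Birc2, an inhibitor of apoptosis that limits the noncanonical branch, had 1717 and 1776 normalised counts in control and 1489 and 1453 in cisplatin cells and was called lower (DESeq2 adjusted p = 0.00238), a call lost without control replicate 2 (0.1), cisplatin replicate 1 (0.0631) or cisplatin replicate 2 (0.117). The cytokine gene Il6 had only 1.04 and 3.94 normalised counts in control and 16.7 and 15.3 in cisplatin cells and received no adjusted p, and Tnf and Il1b were at 0 counts in all libraries. The NF-κB consensus was present in 7 of the 11 called-higher members with a promoter entry and in 1281 of all 32851 promoters (3.9%). Among all 19 tested members with an entry, called or not, 10 held it (52.6%), and nothing about the response is concluded from these shares. Matches of 6 of the 7 called-higher members are shown, in the same form as above, and their flanks differ.
Ccl20 (chr1:83116679-83116702, minus strand): ctcacccGGGGTTTTCCcccattg
Tnfaip3 (chr10:19015411-19015429, plus strand): agGGGGATTTCCgatggaa
Nfkbie (chr17:45555587-45555610, plus strand): gcaaacaGGGGGATTCCggagggg
Nfkb2 (chr19:46304719-46304736, plus strand): gccgaaaGGGGCTTTCCc
Nfkbia (chr12:55492660-55492683, plus strand): aggcgcgGGGAATTTCCaagccag
Cxcl1 (chr5:90891168-90891191, minus strand): cgggccaGGGAAATTCCcggagta

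Many immediate-early transcription factor genes and feedback genes of the MAPK pathway rose too. Immediate-early genes are transcribed within minutes of a stimulus without new protein, and AP-1 is built from their FOS and JUN products. At 24 h, 15 of 25 members tested were called higher and 0 lower (median log2 fold change 0.61), and the count stayed between 14 and 16 whichever library was left out. Junb, an AP-1 subunit, had 801 and 676 normalised counts in control and 1737 and 1792 in cisplatin cells (log2 fold change 1.26 ± 0.10, DESeq2 adjusted p = 1.9e-35). The zinc finger factor Klf4 had 769 and 743 normalised counts in control and 1689 and 1676 in cisplatin cells (log2 fold change 1.15 ± 0.09, DESeq2 adjusted p = 1.37e-36), and the stress factor Atf3 had 175 and 182 normalised counts in control and 365 and 359 in cisplatin cells (log2 fold change 1.02 ± 0.17). Fos had 28.02 and 33.5 normalised counts in control and 59.8 and 57.3 in cisplatin cells and was not called (DESeq2 adjusted p = 0.0588). Of 24 MAPK feedback and EGF receptor ligand genes 11 were called higher and 2 lower. Dusp6, a phosphatase that inactivates ERK, had 236 and 268 normalised counts in control and 550.0 and 680.5 in cisplatin cells (log2 fold change 1.29 ± 0.17, DESeq2 adjusted p = 1.82e-12), and Dusp4, of the same family, had 353 and 365 normalised counts in control and 859.7 and 1032 in cisplatin cells (log2 fold change 1.40 ± 0.13). Both phosphatase genes were separated between the groups. Phlda1, an ERK-responsive gene, rose by 1.23 ± 0.11. The receptor genes moved the other way. Egfr had 5255 and 5579 normalised counts in control and 3994 and 4140.0 in cisplatin cells (log2 fold change -0.41 ± 0.05, DESeq2 adjusted p = 4.33e-13). Erbb2 had 1054 and 1022 normalised counts in control and 801 and 875 in cisplatin cells (DESeq2 adjusted p = 0.00788), and its call was lost without any 1 library of these groups (DESeq2 adjusted p up to 0.24, without cisplatin replicate 1). Areg, another EGF receptor ligand gene, had 0 to 16 counts and was not tested.

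The p53 targets were mixed. p53 is the factor that DNA damage stabilises, and its targets arrest the cell cycle or promote apoptosis. Of 34 targets tested 8 were called higher and 4 lower (median log2 fold change 0.23), so that the share called higher (23.5%) was nearer the background of 15.7% than those of the lists above. Cdkn1a, the p21 inhibitor of cyclin-dependent kinases, had 120.4 and 139.9 normalised counts in control and 254 and 263 in cisplatin cells (log2 fold change 0.99 ± 0.21, DESeq2 adjusted p = 3.44e-05). Plk2, a kinase induced by stress, had 1395 and 1486 normalised counts in control and 3607 and 3816 in cisplatin cells (log2 fold change 1.37 ± 0.07, DESeq2 adjusted p = 1.01e-75), and Aen, an exonuclease of apoptotic cells, had 473 and 507 normalised counts in control and 791 and 886 in cisplatin cells (log2 fold change 0.77 ± 0.11). Cisplatin libraries of these genes were above both control libraries. Mdm2, which degrades p53, had 988 and 1011 normalised counts in control and 1272 and 1258 in cisplatin cells (log2 fold change 0.34 ± 0.08, DESeq2 adjusted p = 0.000309), with an adjusted p of 0.053 without cisplatin replicate 1. Sesn1, a stress-induced sestrin, had 985 and 988 normalised counts in control and 753 and 754 in cisplatin cells (log2 fold change -0.39 ± 0.09), and Psrc1, a spindle protein, had 303 and 328 normalised counts in control and 201 and 182 in cisplatin cells (log2 fold change -0.72 ± 0.17, with a DESeq2 adjusted p of 0.0595 without cisplatin replicate 2). The count of higher targets was 17 with edgeR and 5 without cisplatin replicate 1, and that of lower targets was 2 without control replicate 2 or cisplatin replicate 1 and 1 without cisplatin replicate 2.

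Apoptosis regulators of the BCL2 family and caspases had 6 members called higher and 2 lower of 24. Pmaip1, the NOXA activator of apoptosis, had few counts (13.5 and 22.7 normalised in control and 81.4 and 74.7 in cisplatin cells), and a difference of 2.11 ± 0.47 (DESeq2 adjusted p = 5.92e-05). It received no adjusted p under the replicate block or when control replicate 2, oxaliplatin replicate 2 or either cisplatin library was left out. Bid, which links caspase 8 to mitochondria, had 584 and 547 normalised counts in control and 848 and 914 in cisplatin cells (log2 fold change 0.64 ± 0.11, DESeq2 adjusted p = 5.45e-08). Both were separated between groups. Bmf, another activator, had 886 and 827 normalised counts in control and 561 and 569.9 in cisplatin cells (log2 fold change -0.60 ± 0.11, DESeq2 adjusted p = 8.55e-07), below control in both libraries. The survival gene Mcl1 had 3527 and 3633 normalised counts in control and 3733 and 3624 in cisplatin cells (DESeq2 adjusted p = 0.618). Without cisplatin replicate 1 the list had 1 member called higher, and without cisplatin replicate 2 it had 3.

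Few repair genes were called. Crosslink repair joins the Fanconi anaemia proteins, homologous recombination and translesion polymerases, and nucleotide excision repair cuts out bulky adducts. Of 34 crosslink repair genes 3 were called higher and 1 lower, below the shares of all genes in both directions, and leaving out any 1 library left 1 to 2 higher and 0 lower. With edgeR 6 were higher and 4 lower. Brca1, a recombination factor, was called higher and had 1634 and 1797 normalised counts in control and 2076 and 2114 in cisplatin cells (DESeq2 adjusted p = 0.00112), with 0.088 without control replicate 1 and 0.0761 without cisplatin replicate 2. Fancd2, the monoubiquitinated component of the Fanconi pathway, had 747 and 829 normalised counts in control and 862 and 955 in cisplatin cells and did not pass (DESeq2 adjusted p = 0.137). Of 25 excision repair genes 2 were higher and 3 lower, Ercc4 and Uvssa among the falls, with 1 lower without control replicate 1 and 0 without any other single library. With edgeR 5 were higher and 6 lower. Gtf2h1, a subunit of the TFIIH complex, had 1058 and 1067 normalised counts in control and 2095 and 2039 in cisplatin cells (log2 fold change 0.96 ± 0.07, DESeq2 adjusted p = 4.63e-38). Its rise stood apart from the damage recognition gene Xpc (411 and 369 normalised counts in control and 390.2 and 384 in cisplatin cells, DESeq2 adjusted p = 0.966) and the nuclease gene Ercc1 (316 and 287 normalised counts in control and 309 and 285 in cisplatin cells, DESeq2 adjusted p = 0.946). Of 10 platinum and copper transport genes Abcc1, an efflux pump, was called higher (3229 and 3423 normalised counts in control and 3785 and 3933 in cisplatin cells, DESeq2 adjusted p = 0.00197, and 0.0877 without control replicate 1 or 0.117 without cisplatin replicate 2). The copper importer gene Slc31a1 had 1467 and 1460.1 normalised counts in control and 1364 and 1352 in cisplatin cells (DESeq2 adjusted p = 0.302).

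Most genes of DNA replication and the G1/S step rose. They license origins, copy DNA and supply nucleotides, and many are targets of E2F factors. Of 42 members tested 34 were called higher (81%) and 0 lower, with a median log2 fold change of 0.32, and 25 to 32 were called higher when any 1 library was left out. Ccne2, the cyclin that starts S phase, had 699 and 796 normalised counts in control and 1469.5 and 1494 in cisplatin cells (log2 fold change 0.99 ± 0.10, DESeq2 adjusted p = 2.48e-22), and Cdc6, which loads the replicative helicase, had 956 and 1037 normalised counts in control and 1686 and 1654 in cisplatin cells (log2 fold change 0.74 ± 0.09). Both had the largest rises of the list. Rrm2, a subunit of ribonucleotide reductase, had 3533 and 3502 normalised counts in control and 5246 and 5403 in cisplatin cells (log2 fold change 0.60 ± 0.05, DESeq2 adjusted p = 1.45e-33). Helicase subunit genes rose less, with 5529.9 and 5380.4 normalised counts in control and 7136 and 7149 in cisplatin cells for Mcm2 (log2 fold change 0.39 ± 0.04) and 5599 and 5527 normalised counts in control and 7621 and 7746 in cisplatin cells for Mcm3 (log2 fold change 0.47 ± 0.04). Pcna, the sliding clamp, had 7339 and 7114 normalised counts in control and 9160.1 and 9089 in cisplatin cells (log2 fold change 0.34 ± 0.04, DESeq2 adjusted p = 2.19e-15). The libraries of these genes were separated between the groups, as were those of 41 of the 42 members tested.

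Mitotic genes gave no common direction. Of 41 mitosis and G2/M genes 11 were called higher and 5 lower, with a median log2 fold change of 0.00, and scaling by total counts turned the split to 6 higher and 12 lower. Kif20a, a kinesin of cytokinesis, had 6231 and 6296 normalised counts in control and 8959 and 8826 in cisplatin cells (log2 fold change 0.51 ± 0.04, DESeq2 adjusted p = 6.07e-36), and exons of this gene overlap Cdc23 on the opposite strand. Cdca8, of the chromosomal passenger complex, rose by 0.36 ± 0.07. Aspm, a spindle pole protein, had 1635 and 1835 normalised counts in control and 1222 and 1159 in cisplatin cells (log2 fold change -0.54 ± 0.09, DESeq2 adjusted p = 4.06e-08), and Cenpf, a kinetochore protein, had 2223 and 2515 normalised counts in control and 1754 and 1908 in cisplatin cells (log2 fold change -0.37 ± 0.08). The last pair lay below control in both cisplatin libraries. The mitotic cyclin gene Ccnb1 had 4893 and 4894 normalised counts in control and 4609 and 4719 in cisplatin cells and was not called (DESeq2 adjusted p = 0.256). Plk1, a mitotic kinase, had 2171 and 2089 normalised counts in control and 1817 and 1872 in cisplatin cells (DESeq2 adjusted p = 0.00856), a call lost without each library in turn (up to 0.195, without cisplatin replicate 1). The number called higher was 4 to 6 when 1 library was left out.

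**Figure D2:**
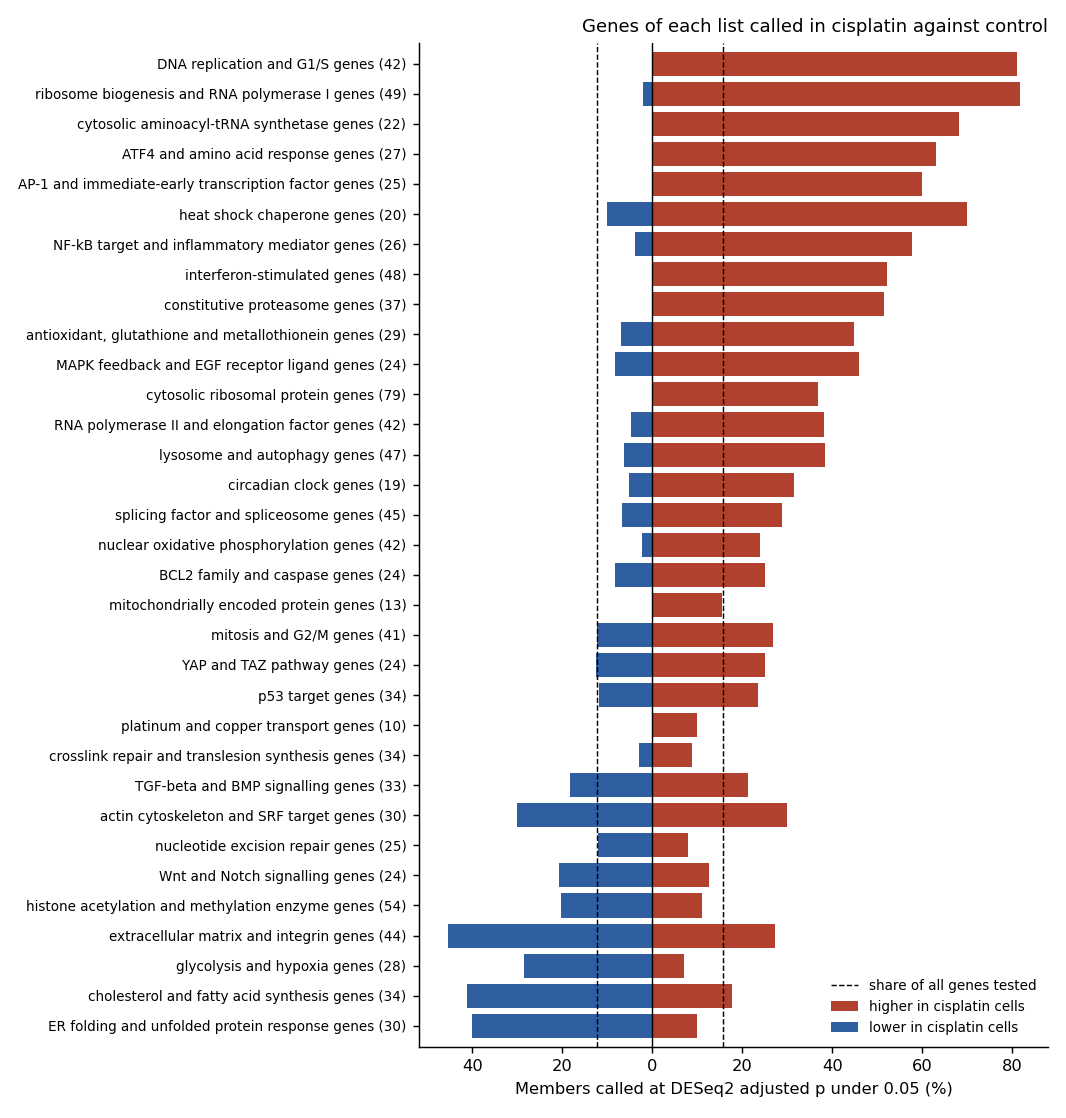
Share of the tested members of each of 33 lists called higher (right) or lower (left) in cisplatin against control, with the number tested in parentheses and dashed lines at the shares of all genes tested, 15.7% higher and 12.4% lower. Replication and ribosome biogenesis lie farthest right of the dashed line, and matrix, cholesterol and ER folding genes farthest left.

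Most ribosome assembly genes also rose, by small amounts. These genes transcribe ribosomal RNA through RNA polymerase I and process it in the nucleolus. Among 49 members 40 were called higher and 1 lower (median log2 fold change 0.34), with 31 to 40 higher when 1 library was left out. Nop2, an RNA methyltransferase, had 2565 and 2608 normalised counts in control and 4106 and 4314 in cisplatin cells (log2 fold change 0.70 ± 0.06, DESeq2 adjusted p = 2.29e-31), and Ddx21, a nucleolar helicase, had 5378 and 5679 normalised counts in control and 8288 and 8816 in cisplatin cells (log2 fold change 0.63 ± 0.05). Polr1a, the largest subunit of RNA polymerase I, had 3946 and 4060.2 normalised counts in control and 5188 and 5554 in cisplatin cells (log2 fold change 0.42 ± 0.06, DESeq2 adjusted p = 7.35e-12). All 3 were higher in both cisplatin libraries. Ncl, which encodes nucleolin, had 25295 and 26103 normalised counts in control and 32732 and 32912 in cisplatin cells (log2 fold change 0.35 ± 0.03). Taf1b, a polymerase I initiation factor, was the member called lower (303 and 314 normalised counts in control and 215 and 194 in cisplatin cells, DESeq2 adjusted p = 0.0055), and this call was lost without either control or either cisplatin library (up to 0.162, without cisplatin replicate 2).

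In further lists of protein synthesis, RNA polymerase II and splicing genes, more members were called higher than lower. Median log2 fold changes of these lists ran from 0.07 to 0.24, beside 0.34 for ribosome assembly, while single members rose by more. Of 79 ribosomal protein genes 29 were called higher and 0 lower, with a median log2 fold change of 0.10. This count depended on the libraries, with 51 without control replicate 1, 11 without control replicate 2, 12 without cisplatin replicate 1 and 18 without cisplatin replicate 2, and on scaling, with 17 under total counts. With length and GC trends removed 19 were higher and 6 lower. Rpl24 had 9766 and 8885 normalised counts in control and 11953 and 11366 in cisplatin cells (log2 fold change 0.32 ± 0.05, DESeq2 adjusted p = 1.07e-08) and Rpl17 4954 and 4705 normalised counts in control and 5796 and 6099.5 in cisplatin cells (log2 fold change 0.30 ± 0.06). Ribosomal protein genes have many processed copies, among which reads can be divided. Of 22 aminoacyl-tRNA synthetase genes, which charge tRNA with amino acids, 15 were called higher and 0 lower. Kars, the lysyl enzyme, had 7386 and 7458 normalised counts in control and 9440.5 and 9734 in cisplatin cells (log2 fold change 0.37 ± 0.04, DESeq2 adjusted p = 4.38e-19), and Aars, the alanyl enzyme, had 13728 and 13478 normalised counts in control and 16916 and 16967 in cisplatin cells (log2 fold change 0.32 ± 0.03). For both enzymes the groups were apart. Of 42 genes of RNA polymerase II and its elongation factors 16 were called higher and 2 lower, among them Ell2, an elongation factor (769 and 843 normalised counts in control and 1279 and 1281 in cisplatin cells, log2 fold change 0.67 ± 0.09, DESeq2 adjusted p = 4.07e-11), and the polymerase subunit gene Polr2g (1603 and 1614 normalised counts in control and 2308 and 2285 in cisplatin cells, log2 fold change 0.51 ± 0.07). That count was 5 without cisplatin replicate 2, 9 without cisplatin replicate 1, and 10 without either control library, and the 2 falls kept a call only without control replicate 1 among fits that left out a library. Splicing factors had 13 called higher and 3 lower of 45, with Hnrnpa1, an RNA-binding protein of the nucleus, from 18123 and 18218 to 23918 and 23161 normalised counts (log2 fold change 0.37 ± 0.04) and Srsf1 not called (8689.7 and 8744 normalised counts in control and 8656 and 8694 in cisplatin cells, DESeq2 adjusted p = 0.92). The splicing calls numbered 8 without control replicate 2, 8 without cisplatin replicate 1 and 7 without cisplatin replicate 2, while the 3 lower calls went to 0 in each of these fits and to 1 without either oxaliplatin library.

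Most targets of ATF4, the factor of the integrated stress response, rose. ATF4 is translated when the initiation factor eIF2α is phosphorylated, and it induces amino acid synthesis and transport as well as CHOP, the product of Ddit3. Of 27 members 17 were called higher and 0 lower (median log2 fold change 0.35). Ddit3 had 758 and 749.8 normalised counts in control and 1307 and 1307 in cisplatin cells (log2 fold change 0.79 ± 0.09, DESeq2 adjusted p = 1.39e-18), and exons of this gene overlap Mars on the opposite strand. Ddit4, an inhibitor of mTORC1, had 2490.5 and 2253 normalised counts in control and 3744 and 3598 in cisplatin cells (log2 fold change 0.63 ± 0.07, DESeq2 adjusted p = 5.47e-19). Psat1, of serine synthesis, had 11818 and 11949.9 normalised counts in control and 15588 and 15693 in cisplatin cells (log2 fold change 0.40 ± 0.03). The cisplatin libraries of these genes were above control without overlap. Atf4 itself had 8049 and 7691 normalised counts in control and 10157 and 9905 in cisplatin cells (log2 fold change 0.35 ± 0.04, DESeq2 adjusted p = 5.9e-15). Asns, the asparagine synthetase, had a log2 fold change of 0.18 ± 0.05 (n = 2 per group, DESeq2 adjusted p = 0.000809, with 0.05 without control replicate 2 and 0.0994 without cisplatin replicate 1).

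More ER folding genes fell than rose. The unfolded protein response raises ER chaperones through the factors XBP1 and ATF6 when folding is overloaded. Of 30 members 3 were called higher and 12 lower, a share of 40% beside 12.4% of all genes, and 6 to 8 were lower and 1 higher when any 1 library was left out. Xbp1 had 1649.9 and 1594 normalised counts in control and 898 and 881 in cisplatin cells (log2 fold change -0.87 ± 0.09, DESeq2 adjusted p = 5.9e-22). Hspa5, the major ER chaperone BiP, had 34507 and 34606 normalised counts in control and 29883 and 29926 in cisplatin cells (log2 fold change -0.21 ± 0.03, DESeq2 adjusted p = 2.02e-08), and Sel1l, of ER-associated degradation, had 2949 and 3224 normalised counts in control and 2176 and 2277 in cisplatin cells (log2 fold change -0.47 ± 0.07). Each of the 3 was lower in both cisplatin libraries than in either control library. Herpud1, which also acts in ER-associated degradation, moved up (2156 and 2261 normalised counts in control and 2727 and 2689 in cisplatin cells, log2 fold change 0.29 ± 0.06, DESeq2 adjusted p = 3.11e-05). Dnajb9, a co-chaperone, had 337 and 339.9 normalised counts in control and 439 and 451 in cisplatin cells (DESeq2 adjusted p = 0.0225), and its call was lost without each library in turn (up to 0.281, without cisplatin replicate 2).

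Most heat shock chaperone genes and many degradation genes rose. Of 20 heat shock chaperone genes 14 were called higher and 2 lower. Hsp90aa1, the inducible HSP90, had 31299 and 32103 normalised counts in control and 44641 and 45869.6 in cisplatin cells (log2 fold change 0.51 ± 0.04, DESeq2 adjusted p = 5.34e-43), and Hspd1, the mitochondrial HSP60, had 17365 and 18048 normalised counts in control and 23410.0 and 24008 in cisplatin cells (log2 fold change 0.42 ± 0.03). Exons of Hspd1 overlap Hspe1 on the opposite strand. Hspb8, a small heat shock protein, was lower (2976 and 2839 normalised counts in control and 2238 and 2221 in cisplatin cells, log2 fold change -0.38 ± 0.06). The chaperone count was 9 without cisplatin replicate 1 and 8 without cisplatin replicate 2. Of 37 constitutive proteasome genes 19 were called higher and 0 lower, led by the subunit genes Psmd8 (2282 and 2193 normalised counts in control and 3228 and 3254 in cisplatin cells, log2 fold change 0.53 ± 0.06, DESeq2 adjusted p = 2.18e-18) and Psmb3 (4311 and 4092 normalised counts in control and 5555 and 5436 in cisplatin cells, log2 fold change 0.39 ± 0.05). Both were above control in both libraries. The proteasome count was 4 without control replicate 2, 6 without cisplatin replicate 1, 8 without cisplatin replicate 2 and 12 under total-count scaling. Lysosome and autophagy genes had 18 called higher and 3 lower of 47. Ctsl, a lysosomal protease, had 5253 and 5188 normalised counts in control and 7235 and 7046 in cisplatin cells (log2 fold change 0.45 ± 0.04, DESeq2 adjusted p = 4.59e-23), and Sqstm1, the autophagy receptor p62, had 9091 and 8587 normalised counts in control and 10692 and 10719 in cisplatin cells (log2 fold change 0.28 ± 0.04, DESeq2 adjusted p = 4.51e-09). Ulk2, a kinase that starts autophagy, was lower (699 and 714 normalised counts in control and 483 and 500.4 in cisplatin cells, log2 fold change -0.52 ± 0.12). The lysosome count was 11 without control replicate 2, 10 without cisplatin replicate 1 and 11 without cisplatin replicate 2, and total-count scaling gave 12, while 1 gene was lower without any 1 library.

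Metabolic genes divided by pathway. In cholesterol and fatty acid synthesis 14 of 34 genes were called lower and 6 higher. Scd2, a fatty acid desaturase, had 49388 and 50644 normalised counts in control and 36810.0 and 37433 in cisplatin cells (log2 fold change -0.43 ± 0.03, DESeq2 adjusted p = 3.99e-47), with both cisplatin libraries below control. Acat2, of the mevalonate pathway's entry, was higher (2366 and 2124 normalised counts in control and 2859 and 2788 in cisplatin cells, log2 fold change 0.33 ± 0.07), as was Insig1, a sterol sensor (1568 and 1493 normalised counts in control and 1889 and 1857 in cisplatin cells, DESeq2 adjusted p = 0.000856, and 0.0756, 0.0803 and 0.0546 without control replicate 2, cisplatin replicate 1 and cisplatin replicate 2). Leaving out 1 library gave 6 to 10 genes lower and 1 to 3 higher. Of 28 glycolysis and hypoxia genes 8 were lower and 2 higher, with Pdk1, which diverts pyruvate from mitochondria, at 1522 and 1445 normalised counts in control and 1003 and 981 in cisplatin cells (log2 fold change -0.58 ± 0.08, DESeq2 adjusted p = 7.43e-12). Pfkl, a phosphofructokinase, had 5072 and 5013 normalised counts in control and 4214 and 4125 in cisplatin cells (log2 fold change -0.27 ± 0.05, DESeq2 adjusted p = 2.26e-08). Both groups of libraries were apart for these enzymes. Ldha (24469 and 23644 normalised counts in control and 22993 and 22844 in cisplatin cells, DESeq2 adjusted p = 0.0757) and Vegfa (1250.4 and 1251 normalised counts in control and 1188 and 1277 in cisplatin cells, DESeq2 adjusted p = 0.889) were not called, and the number of lower genes was 4 without control replicate 1 or either cisplatin library and 13 under total-count scaling.

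Antioxidant genes were more often higher, with 13 called higher and 2 lower of 29. Hmox1, heme oxygenase, had 2257 and 2156 normalised counts in control and 3001 and 2947 in cisplatin cells (log2 fold change 0.43 ± 0.06, DESeq2 adjusted p = 4.25e-11), and the ferritin light chain gene Ftl1 had 35832 and 34278 normalised counts in control and 43831 and 42223 in cisplatin cells (log2 fold change 0.30 ± 0.04, DESeq2 adjusted p = 2.69e-15). Both rose in both libraries. Keap1, which marks the factor NRF2 for degradation, had 2116 and 1995 normalised counts in control and 1614 and 1535 in cisplatin cells (log2 fold change -0.38 ± 0.07), while the NRF2 target Srxn1 had 2198 and 2110.4 normalised counts in control and 1607 and 1731 in cisplatin cells (log2 fold change -0.37 ± 0.08). The metallothionein gene Mt1 (2764 and 2392 normalised counts in control and 2430.2 and 2401 in cisplatin cells, DESeq2 adjusted p = 0.396) and Nqo1 (589 and 522 normalised counts in control and 678 and 609.8 in cisplatin cells, DESeq2 adjusted p = 0.207) were not called. Of 42 nuclear genes of oxidative phosphorylation 10 were called higher and 1 lower, among them the cytochrome oxidase gene Cox5a (2004 and 1941 normalised counts in control and 2566 and 2613 in cisplatin cells, log2 fold change 0.39 ± 0.06, DESeq2 adjusted p = 8.06e-09). That count was 15 without control replicate 1, 3 without control replicate 2, 5 without cisplatin replicate 1 and 4 without cisplatin replicate 2, and 5 under total-count scaling. Of 13 protein genes of the mitochondrial genome 2 were called, mt-Nd1 and mt-Nd2, with log2 fold changes of 0.12 ± 0.04 and 0.14 ± 0.04, and both genes lost their calls without control replicate 1 or cisplatin replicate 1 and under total-count scaling. Counts of mt-Co3 were erratic within groups (796 and 1460.1 normalised counts in control and 752 and 2.05 in cisplatin cells), and exons of this gene overlap mt-Atp6.

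Matrix genes fell more often than they rose. They encode collagens and their crosslinking enzymes, glycoproteins and the integrin receptors. Of 44 members 20 were called lower (45.5%) and 12 higher (27.3%), both above the shares of all genes. Col1a2, a chain of type I collagen, had 109593 and 105526 normalised counts in control and 72977 and 73034 in cisplatin cells (log2 fold change -0.56 ± 0.03, DESeq2 adjusted p = 1.09e-78), and Lox, which crosslinks collagen, had 36409 and 36918 normalised counts in control and 25733 and 25545 in cisplatin cells (log2 fold change -0.52 ± 0.03, DESeq2 adjusted p = 8.78e-72). Col1a1, the partner chain, had 129469 and 117887 normalised counts in control and 95929 and 99662 in cisplatin cells (log2 fold change -0.34 ± 0.04). Each lay lower in both cisplatin libraries. Fn1, fibronectin, had 100437 and 107998 normalised counts in control and 83948 and 90224 in cisplatin cells (DESeq2 adjusted p = 0.00362, with 0.109 without control replicate 2 and 0.112 without cisplatin replicate 1). The collagenase gene Mmp13 rose (2415 and 2509 normalised counts in control and 3632 and 3562 in cisplatin cells, log2 fold change 0.55 ± 0.06, DESeq2 adjusted p = 4.56e-16). The count of higher genes was 7 without cisplatin replicate 2. The fall of Col1a1, Col1a2 and Fn1 is part of the lower summed level of the mesenchymal markers given above, and its part in the other results was not tested.

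Cytoskeletal and growth factor pathways had members moving both ways. Of 30 actin cytoskeleton genes 9 were called higher and 9 lower, and 6 and 11 under total-count scaling. Actb, beta actin, had 53869 and 51086 normalised counts in control and 68301 and 68887 in cisplatin cells (log2 fold change 0.39 ± 0.03, DESeq2 adjusted p = 7.5e-29), whereas Flna, which crosslinks actin filaments, had 31926 and 33343 normalised counts in control and 25148 and 26964 in cisplatin cells (log2 fold change -0.32 ± 0.04, DESeq2 adjusted p = 1.12e-11) and the myosin gene Myh10 19381 and 20082 normalised counts in control and 15134 and 15755 in cisplatin cells (log2 fold change -0.35 ± 0.04). Leaving out any 1 library left 3 to 5 lower genes, and 5 were higher without cisplatin replicate 2. Among 24 YAP and TAZ pathway genes 6 rose and 3 fell. Ccn2, a matricellular target of YAP, had 1520.2 and 1529 normalised counts in control and 3563 and 4049 in cisplatin cells (log2 fold change 1.32 ± 0.08, DESeq2 adjusted p = 1.79e-60), and Ankrd1, a further target, had 1396 and 1507 normalised counts in control and 3262 and 3448 in cisplatin cells (log2 fold change 1.21 ± 0.07). Both were higher in each cisplatin library than in either control library, while Yap1 was not called (10738 and 11059 normalised counts in control and 10987 and 11459 in cisplatin cells, DESeq2 adjusted p = 0.456) and Amotl2 fell (4925 and 4834 normalised counts in control and 4010.5 and 4139 in cisplatin cells, log2 fold change -0.26 ± 0.05). Of 33 TGF-β and BMP genes 7 rose (21.2%) and 6 fell (18.2%), near the shares of all genes. Those that rose included the feedback inhibitor Smad7 (323 and 348 normalised counts in control and 607 and 660.0 in cisplatin cells, log2 fold change 0.92 ± 0.14, DESeq2 adjusted p = 5.05e-10) and the target Id2 (354 and 355 normalised counts in control and 651 and 668 in cisplatin cells, log2 fold change 0.90 ± 0.12). The rises numbered 4 without control replicate 1 or cisplatin replicate 2, and the falls 0 without control replicate 2 or cisplatin replicate 1 and 2 without cisplatin replicate 2. Among 24 Wnt and Notch genes 3 rose (12.5%, under the share of all genes) and 5 fell (20.8%). Those that rose included Jag1, a Notch ligand (388 and 408 normalised counts in control and 675 and 720.4 in cisplatin cells, log2 fold change 0.81 ± 0.12, DESeq2 adjusted p = 1.29e-09), and Hes1, a Notch target (209 and 209.9 normalised counts in control and 354 and 367 in cisplatin cells, log2 fold change 0.79 ± 0.17). Of the 5 that fell, Wnt5a had 1712 and 1734 normalised counts in control and 1216 and 1218 in cisplatin cells (log2 fold change -0.50 ± 0.07, DESeq2 adjusted p = 2.5e-10), and 3 fell without control replicate 2 or cisplatin replicate 1.

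Chromatin enzymes and clock genes gave smaller groups. Of 54 histone acetylation and methylation enzymes 11 were called lower and 6 higher. Kdm5b, a histone demethylase, had 1158 and 1242 normalised counts in control and 812 and 795 in cisplatin cells (log2 fold change -0.58 ± 0.09, DESeq2 adjusted p = 1.15e-08), and Kmt2e, of the methyltransferase family, had 1764 and 1935 normalised counts in control and 1321 and 1287 in cisplatin cells (log2 fold change -0.50 ± 0.08). Acetyltransferase genes differed, with Kat2a called higher (2022 and 2072 normalised counts in control and 2475 and 2620.5 in cisplatin cells, log2 fold change 0.32 ± 0.06, DESeq2 adjusted p = 1.29e-05) and neither Ep300 (2152 and 2325 normalised counts in control and 1898 and 2143 in cisplatin cells, DESeq2 adjusted p = 0.143) nor Crebbp (1345 and 1444 normalised counts in control and 1223 and 1332 in cisplatin cells, DESeq2 adjusted p = 0.303) called. The enzyme list had 14 higher and 8 lower with length and GC trends removed, 4 higher and 18 lower under total-count scaling, and without 1 library 2 to 3 higher and 6 to 9 lower. Of 19 clock genes 6 were higher and 1 lower. Nr1d1, a repressor of the clock loop, had 181 and 185 normalised counts in control and 385 and 402 in cisplatin cells (log2 fold change 1.11 ± 0.16, DESeq2 adjusted p = 4.91e-10), and exons of this gene overlap Thra on the opposite strand. Per1 was not called (692 and 691 normalised counts in control and 695 and 755 in cisplatin cells, DESeq2 adjusted p = 0.684), and 3 clock genes were higher without cisplatin replicate 2.

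The direction of change differed with the genomic span of the gene, the length from its first to its last annotated base. Of 3016 protein-coding genes under 10 kb, 20.4% were called higher and 8.49% lower, and of 302 genes over 300 kb, 2.65% were higher and 47.0% lower. The share called higher was 21.9% at 10 to 30 kb, with 10.4% lower, and beyond that class the shares moved to 16.8% higher and 15.5% lower at 30 to 100 kb and 9.05% higher and 26.1% lower at 100 to 300 kb. The median log2 fold change of the longest class was -0.44, 255 of its 302 values were negative, and 30 genes fell by at least 1. Among genes with a mean of at least 100 normalised counts the longest class had 3.67% higher and 56.4% lower. Across 10276 such genes Spearman's rho between span and log2 fold change was -0.18, given as a description since genes are not independent replicates. When trends over transcript length and GC content were taken out of the counts, 120 of the long genes were lower and 16 higher, and leaving out 1 library left 79 to 112 lower. The count was 79 without control replicate 2, 83 without cisplatin replicate 1 and 88 without cisplatin replicate 2. Under 10 kb, 256 genes were lower, and 90 to 158 when any 1 library was left out. Of the 616 genes under 10 kb called higher, the count was 340.0 without control replicate 2, 331 without cisplatin replicate 1 and 339 without cisplatin replicate 2.

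**Figure D3:**
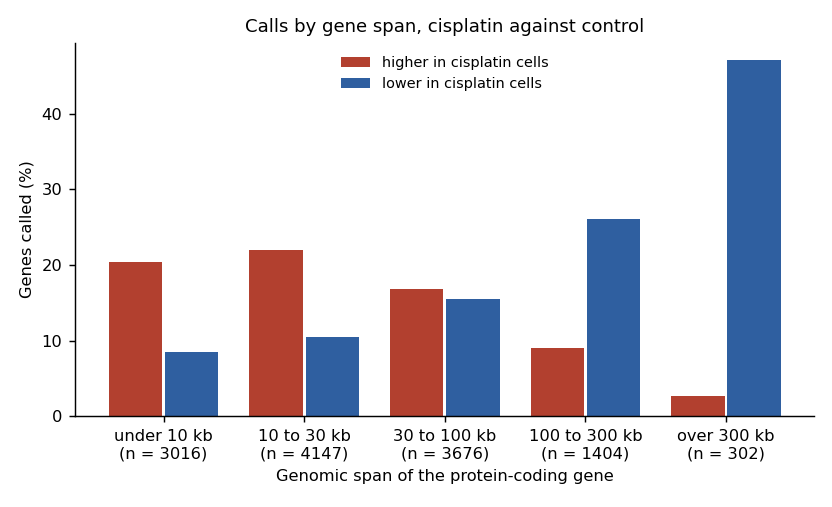
Share of protein-coding genes called higher or lower in cisplatin against control, in 5 classes of genomic span, with the number of genes under each class. The share called higher goes from 20.4% under 10 kb to 2.65% over 300 kb, and the share called lower from 8.49% to 47.0%.

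Single long genes differed in the size of the change. Of the 8 longest protein-coding genes with a mean of at least 100 normalised counts, Gm20388 (span 4435 kb), Nrg1 and Pde4d had log2 fold changes of -0.20, -0.29 and -0.28, of which Pde4d was not called. Fgfr2 (span 2961 kb), also among the 8, was called lower (log2 fold change -0.76 ± 0.14, DESeq2 adjusted p = 7.6e-07). Spans are annotated lengths, and the length transcribed in these cells was not measured. Ptprd (ENSMUSG00000028399, chromosome 4, 75941238 to 78211961), a receptor tyrosine phosphatase with a span of 2271 kb, had 362 and 383 normalised counts in control and 174 and 191 in cisplatin cells (log2 fold change -1.03 ± 0.17, DESeq2 adjusted p = 1.05e-08). Rbms3 (span 1057 kb), an RNA-binding protein, had 362 and 380.3 normalised counts in control and 206 and 199.5 in cisplatin cells (log2 fold change -0.87 ± 0.16, DESeq2 adjusted p = 4.9e-07). Ccser1 (span 1203 kb) had 211 and 233 normalised counts in control and 119 and 104 in cisplatin cells (log2 fold change -0.99 ± 0.21). Both cisplatin libraries of these genes lay well below the control libraries, and their falls were larger than the class median. The dystrophin gene Dmd (span 2257 kb), about as long as Ptprd, had 114 and 119 normalised counts in control and 125 and 125 in cisplatin cells and was not called (DESeq2 adjusted p = 0.804). Dlc1 (span 385 kb), a GTPase-activating protein, was 1 of 8 long genes that rose (1592 and 1693 normalised counts in control and 2663 and 2904 in cisplatin cells, log2 fold change 0.76 ± 0.07, DESeq2 adjusted p = 1.73e-22). The 8 became 2 without cisplatin replicate 2, 3 without control replicate 1 and 5 without control replicate 2. Median spans were 44.2 kb for called-lower, 19.3 kb for called-higher and 24.3 kb for all protein-coding genes tested. The lists above differed in span as well, from a median of 3.24 kb in ribosomal protein and 6.71 kb in immediate-early genes to 38.4 kb in matrix and 44.8 kb in chromatin enzyme genes. Their part in the direction of each list was not tested. Gm20388, Nrg1, Pde4d, Fgfr2, Ptprd, Rbms3, Ccser1, Dmd, Dlc1, Ccne2, Cdc6, Ifit1, Junb and Icam1 were chosen after their values were seen.

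Cisplatin and oxaliplatin were compared directly at 2 µM and 24 h, as 1 pair of compounds. Oxaliplatin carries a diaminocyclohexane ligand where cisplatin has ammines, and an oxalate where cisplatin has chlorides. DESeq2 called 19.9% of genes between the drugs, 11.3% higher and 8.62% lower after cisplatin. Genes over 300 kb were lower after cisplatin than after oxaliplatin in 136 of 302 cases and higher in 4, whereas oxaliplatin against control had 23 lower and 26 higher, beside 9.5% lower and 10.7% higher of all genes in that contrast. Both contrasts with control share the control libraries. Replication genes were higher after cisplatin in 24 of 42 cases and lower in 0. Pcna had 6296 and 6407 normalised counts after oxaliplatin (difference 0.52 ± 0.04 on the log2 scale, cisplatin minus oxaliplatin, DESeq2 adjusted p = 5.88e-36). Mitotic genes were lower after cisplatin in 14 cases and higher in 2 of 41. Ribosome biogenesis genes were lower after cisplatin in 10 and higher in 2 of 49 cases. Against control, oxaliplatin had 13 replication, 18 mitotic and 41 ribosome biogenesis genes higher, and 2, 0 and 1 lower, in this order. Polr1a, with 5917 and 5509.8 normalised counts after oxaliplatin, differed by -0.09 ± 0.06 (95% interval -0.20 to 0.02, DESeq2 adjusted p = 0.267).

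Cdkn1a had 102 and 111 normalised counts after oxaliplatin, beside control values of 120.4 and 139.9 (not called against control, DESeq2 adjusted p = 0.384), and differed between the drugs, at a log2 difference of 1.28 ± 0.22 (DESeq2 adjusted p = 8.63e-08). Of the p53 targets 10 were higher and 2 lower after cisplatin. Cxcl10 reached 244 and 224 normalised counts after oxaliplatin (difference 1.99 ± 0.15, DESeq2 adjusted p = 2.34e-39). Ccl5 (296 and 294 after oxaliplatin, difference 0.39 ± 0.16, 95% interval 0.08 to 0.71, DESeq2 adjusted p = 0.0549) and Ereg (difference 0.25 ± 0.20, 95% interval -0.14 to 0.65, DESeq2 adjusted p = 0.402) did not pass between the drugs. The interval of Ccl5 lies above 0, and that of Ereg includes 0 and still allows a higher level after cisplatin. Unlike the adjusted p, the intervals are not adjusted for the number of genes tested. Ankrd1 was lower after cisplatin than after oxaliplatin, at 4232 and 3898 normalised counts (difference -0.28 ± 0.07, DESeq2 adjusted p = 0.000459).

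Stress and metabolic lists separated the drugs further. ATF4 targets were higher after cisplatin in 23 and lower in 0 of 27 cases, cholesterol and fatty acid genes in 26 and 0 of 34, proteasome genes in 29 and 1 of 37, and antioxidant genes in 23 and 0 of 29. Against control, oxaliplatin had 17, 32, 13 and 21 members of these lists lower, in this order, and 3, 0, 2 and 1 higher. Of all genes 9.5% were lower and 10.7% higher in that contrast. Asns had 4943 and 4866 normalised counts in control, 3130.5 and 3204 after oxaliplatin and 5628 and 5481 after cisplatin (difference between the drugs 0.81 ± 0.05, DESeq2 adjusted p = 7.7e-61). Insig1 had 983 and 1047 after oxaliplatin (difference 0.88 ± 0.08, DESeq2 adjusted p = 3.33e-27), and Hmox1 had 1940.3 and 1943 (difference 0.61 ± 0.06, DESeq2 adjusted p = 1.36e-21). All 3 lay under the control libraries after oxaliplatin and above them after cisplatin. Insig1 was among the 6 cholesterol and fatty acid genes called higher after cisplatin against control, beside 14 called lower. Hspa5 fell after both, to 22683 and 23888 normalised counts after oxaliplatin (DESeq2 adjusted p = 1.38e-58 against control), and was higher after cisplatin by 0.36 ± 0.03 (DESeq2 adjusted p = 1.31e-23). Actin cytoskeleton genes went the other way, lower after cisplatin in 23 and higher in 3 of 30 cases. Against control, oxaliplatin had 21 of these genes higher and 2 lower, whereas cisplatin had 9 higher and 9 lower. Acta2, smooth muscle actin, had 15081 and 15161 normalised counts after oxaliplatin beside 11122 and 11399 after cisplatin (difference -0.43 ± 0.04, DESeq2 adjusted p = 8.17e-25). Glycolysis and hypoxia genes were lower after cisplatin in 15 and higher in 3 of 28 cases. Against control, oxaliplatin had 13 of these genes higher and 3 lower, whereas cisplatin had 2 higher and 8 lower. Without 1 library the number of genes called between the drugs ranged from 1160 (without oxaliplatin replicate 1) to 2439 (without control replicate 1).

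**Figure D4:**
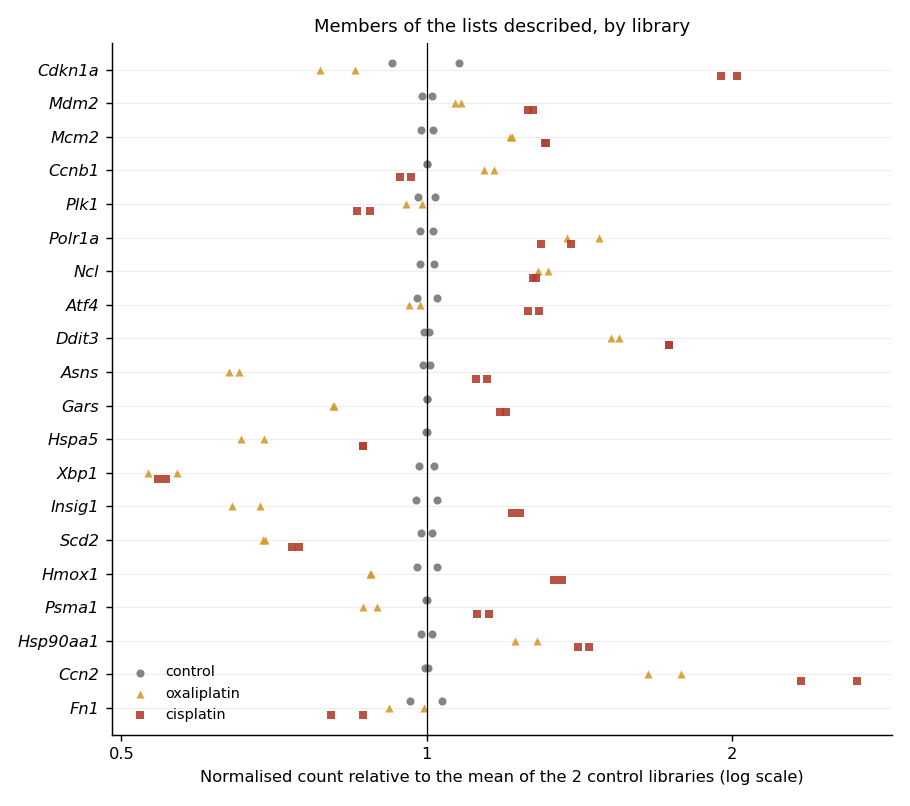
Normalised counts of 20 genes of the lists described, each relative to the mean of the 2 control libraries, on a log axis, with circles for control, triangles for oxaliplatin and squares for cisplatin libraries. Asns, Gars, Insig1, Hmox1 and Psma1 have cisplatin libraries above 1 and oxaliplatin libraries below 1, Polr1a and Ncl lie above 1 after both drugs, and Xbp1 lies below 1 after both.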

How the data were processed

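RNA was sequenced from TRAMP-C2 cells without drug, with cisplatin or with oxaliplatin, in 2 libraries each. The deposited values are expected counts per gene, which the authors made by aligning and estimating reads per gene, not normalised. The submitters' processing notes name STAR 2.5.3a, RSEM 1.3.0 and GRCm38.p6, whereas the study's methods name another counter. The strand setting is not given in the sources used here.

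Expected counts were rounded, and genes reaching 10 counts in 2 or more of the 6 libraries were fitted with DESeq2 1.42.0 (R 4.3.3) on all 6 libraries with group as the only term, median-of-ratios scaling, Wald tests and Benjamini-Hochberg adjustment (called under 0.05, independent filtering at 0.1). By this filtering 1740 tested genes received no adjusted p. Normalised counts are counts divided by size factors of 0.964 to 1.08. Alternatives included edgeR 4.0.16, other scalings and filters, and leaving out each library. Gene positions came from GENCODE M21 (54409 of 54446 identifiers matched) and promoters from RefSeq (9935 of 12545 protein-coding genes tested, 79.2%).

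Genes named were the 10 largest rises and 10 largest falls among called protein-coding genes that averaged 100 or more normalised counts and did not overlap between groups, reference members of each list whatever their values, and the 2 called members per list and direction with the smallest adjusted p. Other genes, which the text names as such, were added after their values were seen. The members and lists of this comparison were chosen with earlier results of these data known. Some genes that these rules name are not reported here.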

Additional observations from a re-analysis of the deposited data

How the results depend on the processing

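Of 180 genes that the naming rule gave, 153 were called, and 116 of these kept their call in every alternative that gave them an adjusted p, the requirement of a log2 fold change of at least 1 aside. No gene was called in opposite directions by DESeq2 as fitted and by any alternative. Cisplatin against control had 4203 calls (2355 higher, 1848 lower) and cisplatin against oxaliplatin 2977. With edgeR's quasi-likelihood test calls numbered 6112 (3095 higher and 3017 lower) and 4773 between the drugs. The replicate block gave 2833 calls, 1703 higher and 1130 lower, and 1861 between the drugs. Correlations of deviations between libraries of the same number were 0.0842 for control and oxaliplatin, -0.0257 for control and cisplatin and -0.235 for oxaliplatin and cisplatin over 11658 genes. No strong positive shift was thus shared by replicate number. These values cannot exclude that libraries of the same number were prepared together, which the labels do not say. A fold requirement of 1 on the log2 scale left 242 calls (122 higher and 120 lower) and 66 between the drugs. Leaving out 1 library gave 2046 to 2974 calls, 1192 to 1764 higher and 764 to 1210 lower, and 1160 to 2439 between the drugs. These fits have fewer samples, and where a group keeps 1 library it is assumed to vary like the others. Scaling by TMM (4219) or by total counts (4200), dropping the low-count filter (3821), asking for 10 counts in all libraries (4338), switching off independent filtering (4093), fitting only the 4 libraries compared (3453) and removing length and GC trends (4294) stayed within 1.5 times 4203. Log2 fold changes that changed sign were small and not called, except that Aff4 was called lower and stood at 0.016 with length and GC trends removed. Total-count scaling turned Mcl1 to -0.0087, Yap1 to -0.0059 and Vcl to -0.019, and length and GC trends turned Xpc to 0.028, Ep300 to 0.025, Crebbp to 0.072, Srsf1 to 0.041 and Sf3b1 to 0.037. When 1 library was left out, Xpc ranged from -0.087 to 0.066, Ercc1 from -0.091 to 0.051, Rpl11 from -0.19 to 0.069, Vegfa from -0.076 to 0.031, Mt1 from -0.19 to 0.014 and Vcl from -0.013 to 0.069. The causes were not tested.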

Other observations

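Gene families beyond the lists were described by shared symbol prefixes, after their values were seen and without a test of any family. Among 43 families with at least 25 tested members, translation initiation factors (Eif) had 34 of 54 members called higher and 2 lower, with a median log2 fold change of 0.17. RNA helicases named Ddx had 15 of 36 higher and 1 lower, and RNA polymerase subunits (Polr) 13 of 28 higher and 1 lower. Collagens (Col) had 14 of 31 lower and 3 higher, tetratricopeptide repeat genes (Ttc) 11 of 30 lower and 1 higher, and zinc finger genes named Zfp 48 of 345 lower and 18 higher. Median spans of these families were 19.0 kb for Eif, 20.4 kb for Ddx, 15.2 kb for Polr, 105 kb for Col, 48.1 kb for Ttc and 16.6 kb for Zfp. Of all protein-coding genes tested 18.2% were called higher and 14.1% lower. The share of Zfp genes called lower (13.9%) was near that background, whereas the share called higher (5.22%) was below it. Their median log2 fold change was -0.16, and their median count was 215 normalised counts, beside 667 for protein-coding genes.

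Of 477 genes tested on the X chromosome 40 were called higher and 89 lower (8.39% and 18.7%), and of 503 on chromosome 19 125 were higher and 62 lower (24.9% and 12.3%). Of all genes tested 15.7% were higher and 12.4% lower, so the lower share on chromosome 19 was at that level. Both chromosomes were named after their values were seen, as the lowest and highest shares called higher, and no chromosome was tested. Noncoding classes had low counts and few calls, with 16 higher and 17 lower of 382 lincRNA genes and 7 higher and 10 lower of 351 antisense genes. Kdr, an endothelial receptor used as a marker, was called higher at 21 to 24 counts in control and 49 to 64 in cisplatin libraries, while Tie1 was at 0 and Cdh5 at 0 to 1.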
